A study of Homo sapiens with 18 samples.

Results

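The 3 histone marks H3K4me3, H3K9me3 and H3K27ac were compared with each other in untreated (n.t.) NB4 cells. NB4 is an established human cell line of acute promyelocytic leukemia (APL) that carries the PML/RARα fusion. Of the 18 lists of enriched regions (peaks) in the series, the 9 lists of untreated cells were used, 3 for each mark, on chromosomes 1 to 22. All 9 came from cells that had received no agent, and the study's methods describe triplicate immunoprecipitations for each mark, with Active Motif antibodies for H3K4me3 and H3K9me3 and an Abcam antibody for H3K27ac. The other 9 lists, from cells exposed to 10 µM maltonis for 24 h, entered no value below. For each mark, regions of the 3 lists were merged where they shared at least 1 bp, and a merged region that 2 or more lists held was kept as a consensus region. This gave 15351 H3K4me3, 29654 H3K9me3 and 28653 H3K27ac consensus regions, out of 258430 regions in the 9 lists.

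H3K4me3 is trimethylation of lysine 4 of histone H3 and is best known as a narrow mark of active promoters. H3K27ac, acetylation of lysine 27 on the same histone, is found at active promoters and at active enhancers, so it usually covers the H3K4me3 sites and many places besides. H3K9me3, trimethylation of lysine 9, marks constitutive heterochromatin, repeats and clusters of zinc finger genes, and is generally associated with transcriptional silencing.

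H3K4me3 was the rarest and narrowest of the marks, and H3K27ac covered the most bases. The H3K4me3 lists of replicates 1, 2 and 3 held 17058, 16909 and 17333 regions, which covered 23.8, 23.4 and 23.5 Mb. The H3K9me3 lists held 33643, 34781 and 34870 regions over 162, 168 and 170 Mb. The H3K27ac lists held 35595, 34200 and 34041 regions over 215, 226 and 223 Mb. The 3 lists of each mark lay close together, and the covered lengths of the marks did not overlap. H3K27ac covered 1.33 times the length of H3K9me3 (221 ± 6.19 Mb against 167 ± 4.44 Mb, SD, n = 3 lists each) and 9.39 times that of H3K4me3 (23.6 ± 0.217 Mb, SD, n = 3). The numbers of H3K9me3 and H3K27ac regions, in contrast, overlapped between the lists (34431 ± 684 and 34612 ± 855, SD, n = 3 each, exact two-sided permutation test, p = 0.9). Both were about 2.01 to 2.02 times the number of H3K4me3 regions, with no overlap between lists (exact permutation test, p = 0.1 in each comparison). With 3 lists against 3 the smallest p this test can give is 0.1, so no comparison of marks could pass 0.05, and p is 0.1 wherever lists of different marks are said not to overlap.

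**Figure D1:**
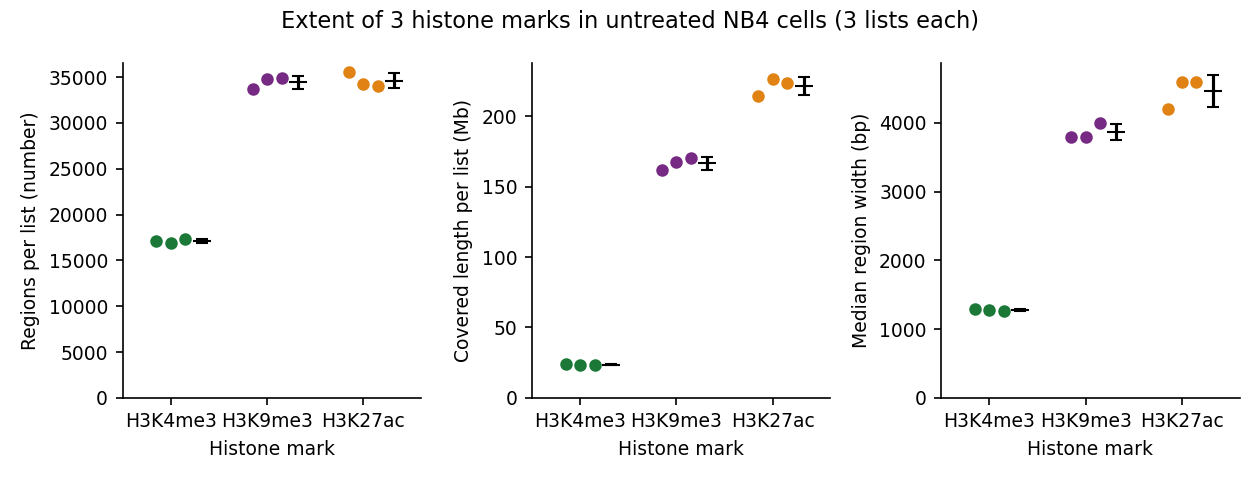
Number of regions, covered length in Mb and median region width in bp for each of the 9 lists of untreated cells, grouped by histone mark. Colored points are single lists and the black bars are the mean ± SD of 3 lists. H3K4me3 lies below the other marks in all 3 panels, and H3K9me3 and H3K27ac overlap in number only.

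The median width was 1291, 1284 and 1257 bp in the H3K4me3 lists, 3800, 3800 and 4000 bp in the H3K9me3 lists and 4200, 4600 and 4600 bp in the H3K27ac lists. Lists of different marks did not overlap in this measure, and the difference was larger in the upper tail. The width below which 90% of regions fell was 2301 ± 28.5 bp for H3K4me3, 7933 ± 115 bp for H3K9me3 and 12267 ± 577 bp for H3K27ac (SD, n = 3 each). In the consensus sets, 16.7% of H3K4me3 regions were narrower than 1000 bp and 0.436% reached 5000 bp, where 2.67% of H3K9me3 and 7.94% of H3K27ac regions were 20000 bp or wider. Those widest regions held 13.5% of the H3K9me3 bases and 30.6% of the H3K27ac bases. The widest consensus region spanned 19801 bp for H3K4me3, 368800 bp for H3K9me3 and 303800 bp for H3K27ac. The H3K4me3 regions were found with another program (MACS2) than those of the other marks (epic2, which works in windows of 200 bp), so mark and program cannot be told apart in widths and numbers that set H3K4me3 against the others.

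The H3K9me3 regions held 3117646, 3279588 and 3344547 reads in the 3 lists, and the H3K27ac regions 19125730, 20005075 and 19773542. Per kb of listed region this was 19.5 ± 0.184 reads for H3K9me3 and 88.7 ± 0.424 reads for H3K27ac (SD, n = 3 each), without overlap. The H3K4me3 lists give a fold enrichment in place of a read count, whose median per list was 4.02, 4.06 and 3.93. Total reads per library were not analysed here, and the part of sequencing depth in the differences between marks was not tested.

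Agreement between replicates was highest for the active marks by regions held in all 3 lists and by shared bases. Of all merged regions, 59.8% of the H3K4me3, 50.5% of the H3K9me3 and 72.8% of the H3K27ac regions were held by all 3 lists. By regions held in a single list, H3K4me3 (31.7%) was no better than H3K9me3 (30.5%), and H3K27ac had 16.9%. Regions in a single list were narrow, with a median of 576 bp for H3K4me3, 3200 bp for H3K9me3 and 3400 bp for H3K27ac, against 1576, 6200 and 6800 bp for those in all 3. Part of this difference follows by construction, since a merged region of all 3 lists joins regions from each of them. The Jaccard index divides the bases shared by a pair of lists by the bases that at least 1 of them covers. It was 0.682 on average between H3K4me3 lists (range 0.678 to 0.689, 3 pairs), 0.699 between H3K27ac lists (0.696 to 0.701) and 0.514 between H3K9me3 lists (0.511 to 0.517). Between marks it was 0.0985 for H3K4me3 with H3K27ac (0.0957 to 0.103, 9 pairs), 0.0688 for H3K9me3 with H3K27ac (0.0674 to 0.0701) and 0.0188 for H3K4me3 with H3K9me3 (0.0180 to 0.0197). Every one of the 9 pairs within a mark was above every one of the 27 pairs between marks.

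Nearly all H3K4me3 regions lay on H3K27ac. Of the 15351 H3K4me3 consensus regions, 14716 shared at least 1 bp with a H3K27ac region (95.9%, 95% Wilson interval 95.5 to 96.2%), and 96.3% of the H3K4me3 bases were under H3K27ac, a mark that covered 9.40% of the span from the first to the last listed base of each chromosome. The share was between 92.9% on chromosome 21 and 97.5% on chromosome 14. Seen from H3K27ac, 13087 of 28653 regions overlapped H3K4me3 (45.7%, 45.1 to 46.3%), and 9.33% of its bases did. In single lists set against the H3K4me3 consensus, 38.8, 39.8 and 40.1% of H3K27ac regions overlapped H3K4me3, as did 7.45, 7.10 and 7.25% of H3K9me3 regions. The lists did not overlap, with a mean difference of 32.3 percentage points (exact permutation test, p = 0.1). On the H3K27ac consensus, single lists placed 91.5, 91.2 and 90.6% of H3K4me3 regions and 24.2, 23.4 and 23.6% of H3K9me3 regions, H3K9me3 minus H3K4me3 being -67.3 points with no overlap. When every list was cut to its strongest regions up to an equal covered length, which keeps few and wide H3K27ac regions, the first difference was 74.4 points and the second -1.04 points. The Wilson intervals cover counting error only, and neighbouring regions are not independent.

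Most H3K9me3 regions met neither active mark, and more of them met H3K27ac, which covers far more of the span, than H3K4me3. Of its 29654 regions, 7573 overlapped H3K27ac (25.5%, 25.04 to 26.04%) and 2557 overlapped H3K4me3 (8.62%, 8.31 to 8.95%). By bases, 17.5% of H3K9me3 was under H3K27ac and 2.12% under H3K4me3, marks that covered 9.40% and 0.911% of the span. Each of these shares of bases was above the coverage of the mark. Shares of regions cannot be set against coverage, since a region counts when it shares only 1 bp. From the other side, 2734 H3K4me3 regions (17.8%, 17.2 to 18.4%) and 7130 H3K27ac regions (24.9%, 24.4 to 25.4%) overlapped H3K9me3. By bases, 17.5% of H3K4me3 and 14.0% of H3K27ac were under H3K9me3, which covered 7.52% of the span. In single lists, 17.9, 17.8 and 17.9% of H3K4me3 regions and 21.2, 21.8 and 22.1% of H3K27ac regions overlapped the H3K9me3 consensus. The lists of the marks did not overlap, with H3K27ac higher by 3.83 percentage points (exact permutation test, p = 0.1). This order depended on how overlap was defined. With at least 50% of the shorter region required, H3K27ac minus H3K4me3 was -1.30 percentage points, again without overlap between lists, and it was 6.49 points with equal numbers and 6.70 with equal covered length.

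An H3K4me3 region that met H3K9me3 was usually inside it. Of the 2734, 1933 (70.7%) were wholly covered by H3K9me3, and 2555 of them also overlapped H3K27ac. Of the H3K4me3 regions that did not meet H3K9me3, 280 of 12617 (2.22%) had an H3K9me3 region within 1000 bp, and the median gap was 30120 bp with quartiles of 10584 and 75237 bp. For H3K27ac regions off H3K9me3 the median gap was 26800 bp with quartiles of 9200 and 64800 bp.

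All 7 combinations of marks occurred, at very unequal frequencies. Merging the 3 consensus sets gave 49992 regions over 436 Mb. H3K9me3 only was the most frequent combination with 21933 regions (43.9%), then H3K27ac only with 11743 (23.5%) and H3K4me3 + H3K27ac, the pair typical of active promoters, with 9740 (19.5%). All 3 marks met in 3137 merged regions (6.28%) and H3K9me3 + H3K27ac in 2843 (5.69%). H3K4me3 seldom occurred without H3K27ac, with 456 regions of H3K4me3 only (0.912%) and 140 of H3K4me3 + H3K9me3 (0.280%). These frequencies rest on the full lists. When every list was cut to its strongest regions up to the same covered length (23.4 Mb), H3K4me3 only became the most frequent combination with 13537 regions, and H3K4me3 + H3K27ac fell to 624 and all 3 marks to 65.

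Combinations with more marks were wider, in part by construction, since a merged region joins every region that overlaps in it. The median width was 860 bp for H3K4me3 only, 5400 bp for H3K9me3 only and 5000 bp for H3K27ac only. It was 6180 bp for H3K4me3 + H3K9me3, 7600 bp for H3K4me3 + H3K27ac, 11200 bp for H3K9me3 + H3K27ac and 18200 bp for all 3 marks. A wider merged region has more room for a second mark, so the same combinations were counted by base. By base the marks were far more separate, with 205 Mb under H3K27ac only, 173 Mb under H3K9me3 only, 32.7 Mb under H3K9me3 + H3K27ac, 20.4 Mb under H3K4me3 + H3K27ac and 4.09 Mb (0.937% of covered bases) under all 3. H3K4me3 only took 0.598 Mb and H3K4me3 + H3K9me3 0.354 Mb.

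When single lists with the same replicate number were combined in place of the consensus sets, an alternative chosen after the data were seen, the order of the common combinations did not change. H3K9me3 only had 26523 ± 549 regions, H3K27ac only 16501 ± 808 and H3K4me3 + H3K27ac 11030 ± 178 (SD, n = 3 sets of lists). Regions with all 3 marks numbered 3147 ± 60.7 and those of H3K9me3 + H3K27ac 2902 ± 54.1. All 7 combinations had more regions than in the consensus sets, and those that grew by over 1.5 times were the rare ones, to 1249 ± 99.8 for H3K4me3 only and 286 ± 33.2 for H3K4me3 + H3K9me3.

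**Figure D2:**
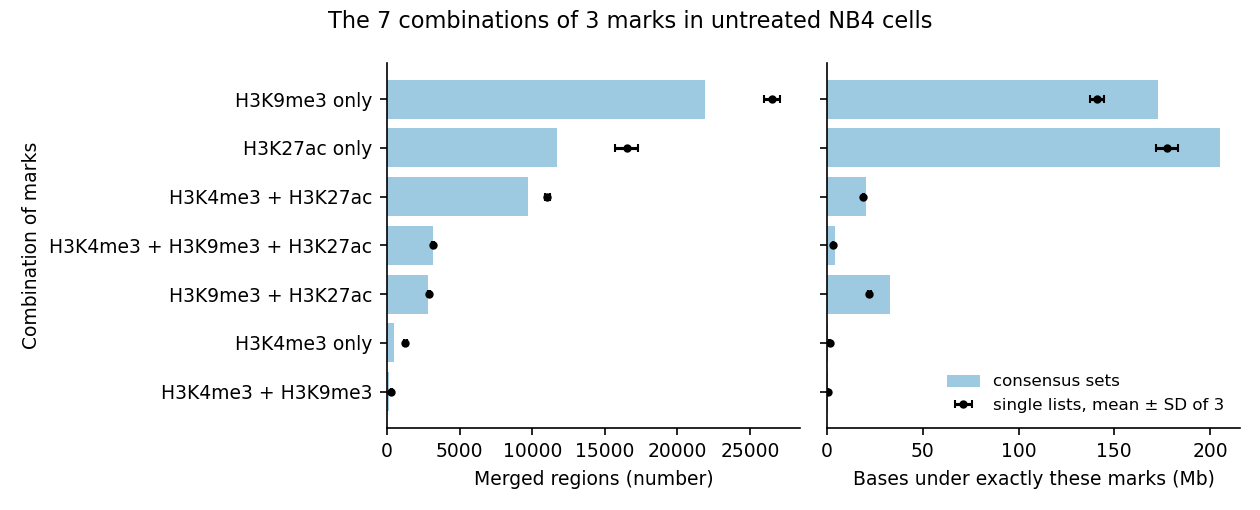
Number of merged regions (left) and Mb under exactly the named marks (right) for the 7 combinations. Bars are the consensus sets and black points with error bars are the mean ± SD of the 3 sets of single lists. H3K9me3 only leads by number and H3K27ac only by bases, and H3K4me3 without H3K27ac is close to 0 in both panels.

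The strength of a region differed with the marks beside it, most of all for H3K27ac. Strength was the rank of a region within its own list, as a percentile, by the −log10 q of H3K4me3 or the island score of the other marks. In the H3K27ac lists, regions with H3K4me3 had a median of 110 ± 1.12 reads per kb against 36.03 ± 0.363 without it (SD, n = 3), 3.06 times as many, and were wider (6400 ± 200 against 3867 ± 231 bp). Their median percentile was higher by 47.2 points, in 3 of 3 lists (exact two-sided sign-flip test, p = 0.25, the smallest this test can give). H3K27ac regions without either mark had 35.3 ± 0.309 reads per kb and those with H3K9me3 only had 39.4 ± 0.449, against 108 ± 1.39 with H3K4me3 only and 118.9 ± 1.504 with both (SD, n = 3 each). The values of the groups with and without H3K4me3 did not overlap in the lists.

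H3K4me3 regions off H3K27ac were weak and short. Their median fold enrichment was 2.77 ± 0.00978 against 4.17 ± 0.0652 on H3K27ac (SD, n = 3), their median width 607 ± 17.9 against 1324 ± 16.3 bp and their median strength percentile 12.6 ± 1.00 against 54.4 ± 0.219. The difference had the same direction in 3 of 3 lists (exact sign-flip test, p = 0.25). In the consensus set, 54.4% of the H3K4me3 regions that met neither mark were held by all 3 lists, against 89.5% of those with H3K27ac only.

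The share of H3K4me3 regions on H3K27ac rose with strength, from 63.0 ± 3.39% in the weakest decile of a list to 97.0 ± 0.0759% in the fifth decile and 100% in the 9th and 10th deciles of all 3 lists (SD, n = 3). For H3K27ac regions on H3K4me3 the rise was steep in the upper part of the list. It went from 3.37 ± 0.354% in the 1st decile to 27.5 ± 0.944% in the 6th, 48.5 ± 1.21% in the 7th, 86.5 ± 2.46% in the 8th and 95.8 ± 0.0882% in the 10th. The median width of the H3K27ac regions also rose over the list, from 2867 ± 231 bp in the 1st to 13733 ± 833 bp in the 10th decile. It was 6200 ± 346 bp in the 7th and 5533 ± 115 bp in the 8th decile. The part of width in the rise over the list was not tested.

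H3K4me3 regions on H3K9me3 came from both ends of the strength scale. Their share was 23.3 ± 1.10% in the weakest decile, fell to 9.98 ± 0.357% in the 7th and was 25.7 ± 0.792% in the strongest (SD, n = 3). The median width was 722 ± 7.65 bp in the weakest decile, 1683 ± 42.3 bp in the 7th and 1406 ± 33.5 bp in the strongest. The part of width in these shares was not tested. A single median of strength hides the shape of the shares. Over all regions, H3K4me3 with H3K9me3 had a lower median percentile (39.9 ± 0.712 against 51.8 ± 0.0740) and a lower median fold enrichment (3.31 ± 0.0582 against 4.13 ± 0.0671) in 3 of 3 lists (exact sign-flip test, p = 0.25). When only regions with a −log10 q of at least 10 were kept, 56.6 ± 1.02% of each list, the difference in percentile turned from -11.9 to 12.2 points, again in one direction in all 3 lists.

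H3K9me3 regions differed less. Those on H3K27ac had a median of 17.2 ± 0.251 reads per kb against 16.5 ± 0.126 off it (SD, n = 3) and ranked 10.3 percentile points higher in 3 of 3 lists (exact sign-flip test, p = 0.25). The size of this difference depended on how overlap was defined. With at least 50% of the shorter region required it was 1.99 points, again in 3 of 3 lists. The share on H3K27ac was near 20% in the lower part of the list (20.9 ± 0.111% in the 1st and 20.3 ± 0.631% in the 6th decile) and reached 41.7 ± 0.393% in the 10th. The median width of the H3K9me3 regions in these deciles was 2600, 4000 and 9667 bp, and the part of width in the rise was not tested. With against without H3K4me3, the percentile of H3K9me3 regions differed by 2.20, 4.27 and -0.04 points in the 3 lists, so it had no common direction. The small class of H3K9me3 regions with H3K4me3 and without H3K27ac, 148 in the consensus set, had a median of 20.8 ± 0.825 reads per kb against 16.5 ± 0.117 for H3K9me3 alone, without overlap between lists, a difference with no test here.

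**Figure D3:**
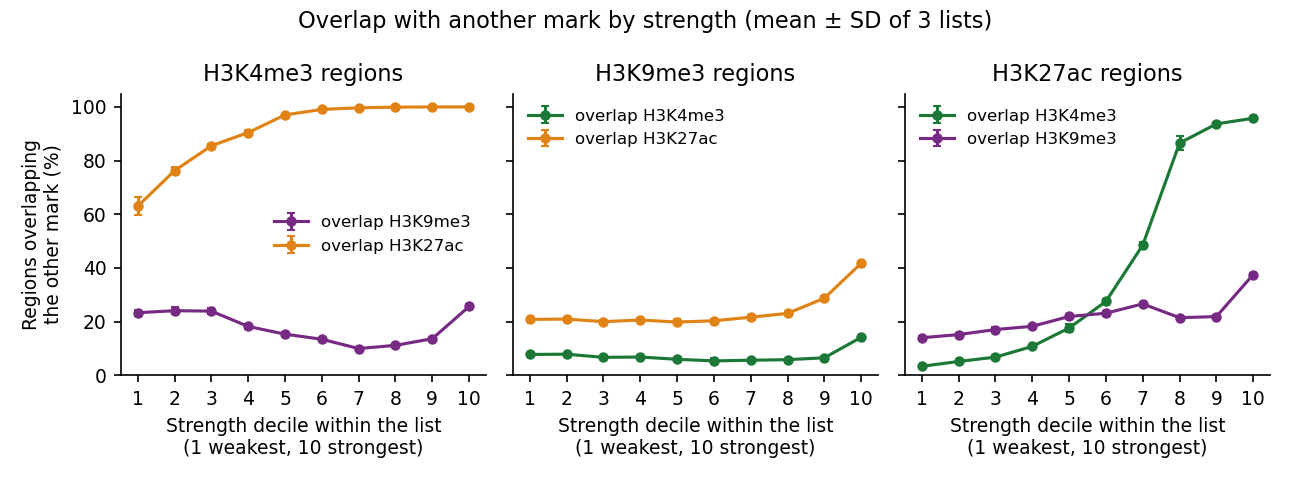
Percent of H3K4me3 (left), H3K9me3 (middle) and H3K27ac (right) regions that overlap a consensus region of each other mark, by strength decile within the list. Points are means and bars SD of 3 lists. The curve of H3K27ac regions on H3K4me3 climbs from 48.5% to 86.5% between the 7th and 8th deciles, and that of H3K4me3 regions on H3K9me3 is high at both ends.

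H3K4me3 was nested within H3K27ac. Of the 14716 H3K4me3 regions on H3K27ac, 14393 (97.8%) lay wholly inside a single H3K27ac region. Their midpoint was in the central 40% of that region in 9636 cases (66.9%) and in the outer 10% at either end in 414 (2.88%), and the median distance from the H3K4me3 edge to the nearer H3K27ac edge was 2167 bp. The midpoint of a region wholly inside another cannot come close to its ends when it fills much of it. No expected share was computed, so central placement was not tested. Most H3K27ac regions held 0 (15566, 54.3%) or 1 (11900, 41.5%) H3K4me3 regions. The median H3K27ac width was 5200 bp with 0 H3K4me3 regions, 7600 bp with 1, 22800 bp with 2, 39200 bp with 3 and 70400 bp with 4 or more, and the largest number was 16, in the H3K27ac region of 303800 bp. Where the marks overlapped, a median of 20.1% of an H3K27ac region was under H3K4me3.

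The marks were spread unevenly over the chromosomes. The share of the span under H3K4me3 was lowest on chromosome 18 (0.484%) and highest on chromosome 19 (2.86%). H3K27ac was also lowest on chromosome 18 (3.92%) and highest on chromosome 19 (19.4%), with chromosomes 12 (17.1%), 20 (16.5%) and 17 (16.1%) next. H3K9me3 reached 19.7% on chromosome 19, 15.5% on chromosome 12 and 15.0% on chromosome 7, and was lowest on chromosome 18 (3.17%). Across the 22 chromosomes, the spans under H3K4me3 and H3K27ac ranked alike (Spearman's rho 0.91, Pearson's r 0.84), those under H3K9me3 and H3K27ac less so (rho 0.54, r 0.62), and those under H3K4me3 and H3K9me3 little (rho 0.21, r 0.44; r was -0.04 without chromosome 19). These correlations describe chromosomes of the same 9 libraries, which also differ in base composition and gene content. Copy number was not analysed here, and its part in the coverage of chromosomes and bins was not tested.

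Chromosome 22 was the poorest in H3K9me3 for its active marks. It held 0.622, 0.627 and 0.638% of the H3K9me3 bases of the 3 lists, against 1.99, 1.98 and 1.96% of the H3K27ac bases and 2.34, 2.37 and 2.42% of the H3K4me3 bases. Chromosome 7 stood at the other end. It held 11.5, 11.4 and 11.3% of the H3K9me3 bases, against 6.08, 6.05 and 6.05% of the H3K4me3 bases. Lists of different marks did not overlap on either chromosome. The chromosomes in this paragraph were picked as extremes from the consensus of these same lists, so a lack of overlap on them is no independent support. Chromosome 4, at the other extreme from chromosome 22 for H3K27ac relative to H3K9me3, held 3.72 ± 0.0365% of the H3K27ac and 5.55 ± 0.0223% of the H3K9me3 bases. Relative to H3K4me3, H3K27ac was highest on chromosome 12 (8.73 ± 0.0263% against 6.03 ± 0.123%) and lowest on chromosome 19 (4.53 ± 0.0550% against 6.39 ± 0.0315%, SD, n = 3 each, no overlap of lists). The chromosome 19 difference turned to 4.08 percentage points in the other direction when each list was cut to its strongest regions up to the same covered length.

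The share of H3K4me3 regions on H3K9me3 followed these differences, from 5.45% on chromosome 22 to 39.2% on chromosome 7. Regions with all 3 marks made up 9.40% of the merged regions of chromosome 7, 10.6% of those of chromosome 19 and 4.69% of those of chromosome 22. H3K4me3 + H3K27ac made up 8.49% on chromosome 7, 37.3% on chromosome 19 and 35.6% on chromosome 22. Chromosome 19 aside, chromosomes rich in H3K9me3 also had lower signal of the active marks per region. The median H3K27ac read density was 39.1 ± 0.622 reads per kb on chromosome 7 and 38.4 ± 0.749 on chromosome 12, against 60.8 ± 1.75 on chromosome 1 and 60.8 ± 0.538 on chromosome 14 (SD, n = 3). Chromosome 19 was the exception, with 80.4 ± 0.959. Over the 21 other chromosomes, Spearman's rho between the span under H3K9me3 and the H3K27ac read density was -0.92, and that with the median H3K4me3 fold enrichment was -0.83. Pearson's r was -0.90 and -0.75 over the same chromosomes. With chromosome 19, rho was -0.67 and -0.59, and r was only -0.09 and -0.20. Chromosomes 1, 7, 12, 14 and 19 were singled out after their read densities were seen, and the cause of this relation was not tested.

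**Figure D4:**
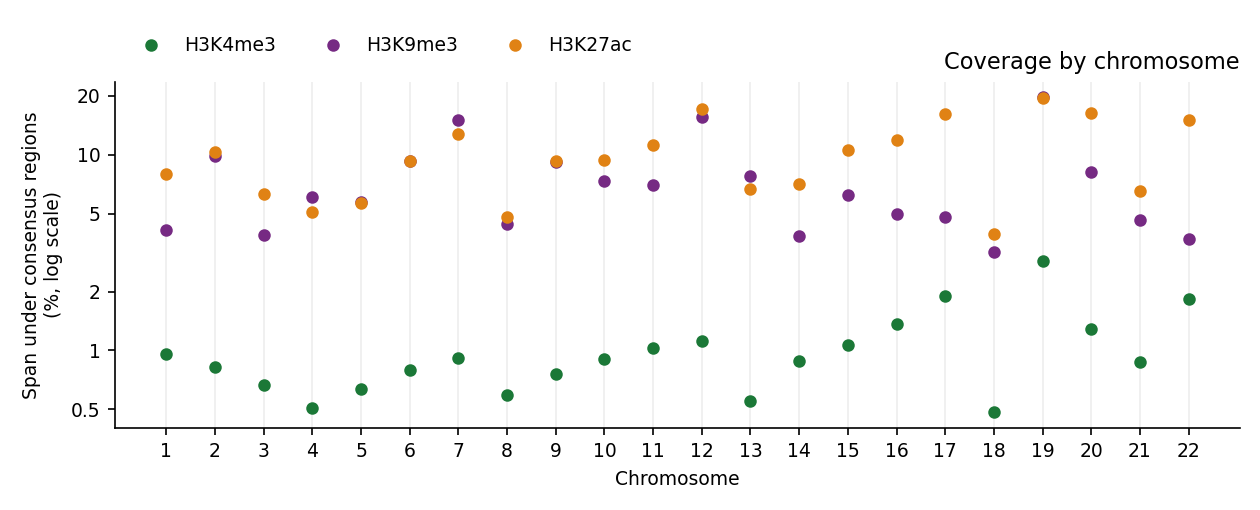
Percent of the span of each chromosome under consensus regions of each mark, on a log scale, for chromosomes 1 to 22 in order. H3K27ac lies above H3K9me3 on most chromosomes and below it on chromosomes 4, 5, 6, 7, 13 and 19, and chromosome 22 shows the widest gap between them.

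In bins of 1 Mb, the shares under H3K4me3 and H3K27ac moved together (r 0.82, rho 0.92, 2892 bins), and so, more weakly, did H3K9me3 and H3K27ac (r 0.50, rho 0.69). Without the 265 bins empty of all marks, the values were r 0.81 and rho 0.91, and r 0.47 and rho 0.61 (2627 bins). At 100 kb, again without empty bins, they were r 0.65 and rho 0.75 for H3K4me3 with H3K27ac and r 0.15 and rho 0.02 for H3K9me3 with H3K27ac (17445 bins). H3K4me3 and H3K9me3 had r 0.01 and rho -0.10 at that scale. Each of these correlations was lower at 100 kb than at 1 Mb. All bins come from the same libraries and share depth and base composition along the chromosomes.

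Part of the sequence under both H3K9me3 and H3K27ac lay in few places. After the values were seen, bins of 1 Mb with at least 30% under each of these marks were singled out. There were 32 of them (1.11% of bins), 8 each on chromosomes 9 and 12, 6 on chromosome 19, 4 on chromosome 7, 2 each on chromosomes 4 and 8, and 1 each on chromosomes 2 and 6. They held 9.15 Mb of the bases under both marks (24.9%), and 8.05% of all H3K9me3, 5.96% of all H3K27ac and 3.00% of all H3K4me3 bases. A raised share of the bases under both marks follows in part from how the bins were chosen. The highest was chr19:47000001-48000000 (hg19), with 88.0% under H3K9me3, 92.6% under H3K27ac and 82.7% under both. On chromosome 12, chr12:26000001-27000000 had 76.1% under H3K9me3 and 83.1% under H3K27ac, and on chromosome 8, chr8:128000001-129000000 had 77.0% and 65.5%.

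Inside these bins the active marks were weaker per region. The median H3K27ac read density was 35.0 ± 0.340 reads per kb inside and 50.2 ± 0.939 outside (SD, n = 3), and the median H3K4me3 fold enrichment 2.94 ± 0.0655 inside and 4.03 ± 0.0684 outside. H3K9me3 read density was 16.3 ± 0.0765 inside and 16.7 ± 0.148 outside, while its regions were wider (5033 ± 153 against 3800 bp). Outside these bins, 15.9% of H3K4me3 regions overlapped H3K9me3, 14.3% of H3K9me3 bases were under H3K27ac and 95.8% of H3K4me3 regions overlapped H3K27ac. No input track was used here, so whether read background or copy number differs in these bins was not tested.

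**Figure D5:**
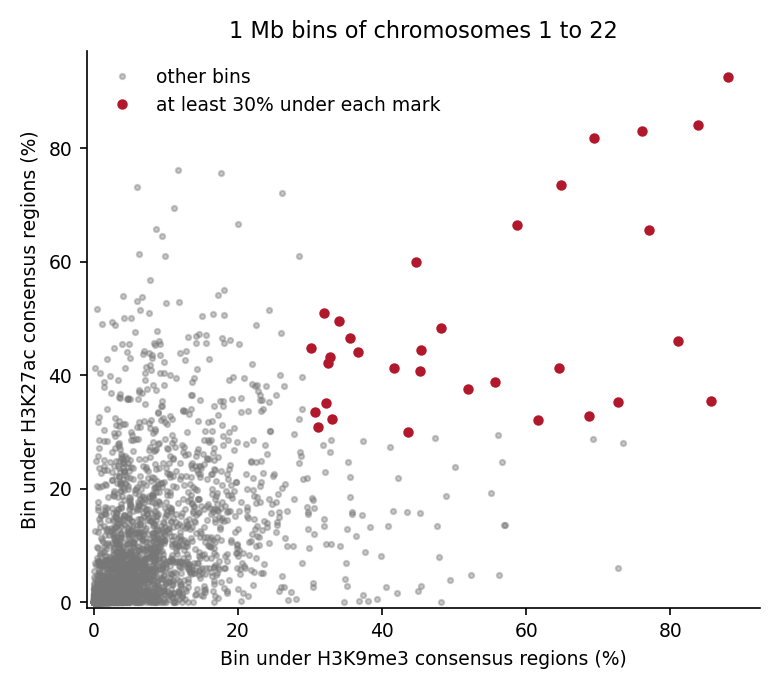
Percent of each 1 Mb bin of chromosomes 1 to 22 under H3K9me3 (x axis) and H3K27ac (y axis) consensus regions. Each point is 1 bin, and the 32 red bins have at least 30% under each mark. The red bins reach 88.0% under H3K9me3 and 92.6% under H3K27ac, and every grey bin is below 30% for at least 1 of these marks.

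The strongest and the widest merged region of each combination are given with coordinates in hg19, the build of the lists, and their gene content was not analysed here. The region with all 3 marks at chr19:10170601-10488000 had the highest mean percentile (99.97) and carried 50525 ± 708 H3K27ac reads and 6724 ± 195 H3K9me3 reads (SD, n = 3), and 23.7 kb of H3K4me3 with a fold enrichment of 8.80 ± 0.257. The widest of all merged regions was its neighbour at chr19:10488801-10883600, 394800 bp, with 51344 ± 868 H3K27ac and 3428 ± 196 H3K9me3 reads. A short gap separates these neighbours, and both lie in 1 of the 32 bins.

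The strongest H3K4me3 + H3K27ac region, chr10:99145001-99192200, had an H3K4me3 fold enrichment of 7.63 ± 0.310 and 6138 ± 169 H3K27ac reads (SD, n = 3), and no list held H3K9me3 there. The widest of that combination, chr6:7104001-7250800, had 20868 ± 291 H3K27ac reads, and 2 of the 3 H3K9me3 lists held regions in it (mean percentile 34.5) that made no consensus region. For H3K27ac only, chr11:46676001-46710000 was the strongest with 4797 ± 84.1 reads, and 2 of the 3 H3K4me3 lists held weak regions in it (mean percentile 9.19) that were not at 1 place and so made no consensus region. The widest, chr9:80504801-80582600, had 5275 ± 250 reads, with a weak region of each other mark in 1 list.

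Among regions of H3K9me3 only, chr19:24447401-24578600 was the strongest with 4692 ± 183 reads (SD, n = 3) and chr7:62068601-62320600 the widest with 6475 ± 226 reads over 252000 bp, with a weak H3K4me3 region in 1 list. Where H3K9me3 met H3K27ac without H3K4me3, the strongest region, chr7:117907201-118005000, carried 2831 ± 23.7 H3K9me3 and 6864 ± 224 H3K27ac reads, and chr10:46964601-47149400, the widest, carried 3536 ± 156 and 4762 ± 271. Without H3K4me3 here means without a consensus region. All 3 H3K4me3 lists held weak regions in the chr10 region (mean percentile 8.29, fold enrichment 2.24 ± 0.0954) and 1 list did in the chr7 region. The strongest region of H3K4me3 only, chr1:1655081-1656284, had a mean percentile of 73.0 and a fold enrichment of 8.26 ± 0.909, and the widest, chr10:89100516-89104174, a percentile of 29.2. The strongest of H3K4me3 + H3K9me3, chr3:44752201-44781400, ranked at the 99.0 percentile for H3K9me3 and the 49.2 percentile for H3K4me3, and the widest, chr12:133774401-133830600, at the 99.8 and the 16.3 percentile. In the chr3 region 1 H3K27ac list held a weak region.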

How the data were processed

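ChIP-seq peak lists of untreated NB4 cells were used, 3 per mark, with marks and replicate numbers taken from the sample titles. The marks, the consensus rule and the comparisons were chosen with earlier results of these data known. Per the labels, the authors aligned reads with BWA to hg19. The methods name MACS2 for H3K4me3 and epic2 for the other marks (the labels name SICER, of which epic2 is a reimplementation), and versions, parameters and controls are not given in the sources used here. For each H3K4me3 peak the authors deposited a score, a fold enrichment (ratio) over the local background, and a −log10 p and −log10 q. For each H3K9me3 and H3K27ac region they deposited a read count, not normalized, and an island score. These values describe a region within its own list, so strength was compared as a within-list percentile, and reads per kb within a mark. Reads in regions numbered 3117646 to 3344547 for H3K9me3 and 19125730 to 20005075 for H3K27ac.

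Regions on chromosomes 1 to 22 were kept. The ends of H3K9me3 and H3K27ac regions were raised by 1 bp, so that they are whole windows of 200 bp. Overlap meant at least 1 shared bp. The span of a chromosome ran from the first to the last base in the 9 lists, 2792 Mb in all. Exact two-sided permutation tests (20 assignments of 6 lists) compared values per list between marks, and sign-flip tests those within a mark (8 sign patterns over 3 lists). Merged regions named in the text are the one with the highest mean strength percentile and the widest of each combination. Named chromosomes have the largest or smallest ratio of one mark's share of covered length to another's. Names chosen after values were seen are marked as such. Shares carry 95% Wilson intervals. Interval code was tested on simulated data and run with Python 3.11.15, NumPy 2.4.6 and SciPy 1.17.1. Gene starts and gene lists were not analysed here, as no hg19 annotation was used. The treated lists were left out.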

Additional observations from a re-analysis of the deposited data

How the results depend on the processing

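Of 32 results, recomputed 335 times in all under the alternatives, 301 values kept their direction and whether the lists overlapped, or stayed within 1.5 times the reported count. Some of these could not change. The 12 values of the replicate block are the reported ones. The −log10 q setting cut only H3K4me3 lists, so comparisons of H3K9me3 with H3K27ac alone were the same by construction. The 301 is therefore not a measure of robustness. The differences in covered length, in median width and in the share of regions on H3K4me3 or H3K27ac kept their direction under every alternative run for them. The cause of the changes below was not tested. H3K27ac minus H3K9me3 in number of regions, 181 as reported with overlapping lists, was -2784 when regions within 1000 bp were merged and ranged from -705 to 685.5 when 1 replicate was left out (-705 without replicate 1). H3K27ac minus H3K4me3 in the percent of regions on H3K9me3, 3.83 as reported, was 6.49 at equal numbers of regions, 6.70 at equal covered length and -1.30 when 50% of the shorter region had to be shared. H3K4me3 regions with minus without H3K9me3, -11.9 percentile points as reported, were at 12.2 with a −log10 q of at least 10. H3K9me3 regions with minus without H3K27ac, 10.3 points as reported, kept their direction but were at 1.99 when 50% of the shorter region had to be shared. H3K9me3 regions with minus without H3K4me3, 2.14 points with no common direction, were at 4.19 with regions within 1000 bp merged, -1.09 with regions of at least 1000 bp, -4.22 when H3K4me3 regions needed a −log10 q of 10 or more, -1.58 without the megabase bins rich in both marks (chosen after the data were seen), and 0.37 to 1.76 without 1 replicate, with 1 direction in both remaining lists only without replicate 3. The chromosome 19 share of H3K27ac minus that of H3K4me3, -1.87 points, was 4.08 at equal covered length (23.4 Mb per list).

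The counts of combinations moved most when lists were cut. H3K4me3 only (456) was 74 with regions of at least 1000 bp, 41 with a −log10 q of at least 10, 1875 at equal numbers of regions (16909 per list), 13537 at equal covered length and 1249 in single lists. H3K4me3 + H3K9me3 (140) was 84 with a consensus of 3 of 3 lists, 82 with the strongest 75%, 52 with regions of at least 1000 bp, 4 with a −log10 q of at least 10, 225 at equal numbers, 248 at equal length and 286 in single lists. All 3 marks (3137) became 1946 with the strongest 75%, 1988 with a −log10 q of at least 10, 1739 at equal numbers and 65 at equal length. At equal numbers, H3K9me3 only was 11738, H3K27ac only 2948 and H3K9me3 + H3K27ac 828. At equal length these were 864, 24 and 7, with 624 for H3K4me3 + H3K27ac, since the strongest epic2 regions are wide and few. The gap between the lowest Jaccard index within a mark and the highest between marks, 0.408, became 0.546 at equal length.

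With the replicate block (exact sign-flip test over the 3 replicate numbers), the difference in covered length between H3K27ac and H3K9me3 of 54.9 Mb had p = 0.25, the smallest possible, and the difference in number of regions, 181, had p = 1. Lists with the same number did not deviate together (r -0.0475 to 0.0594 over 9 pairs), so the numbers were not used to pair lists. Total reads per library were not analysed here, so what depth limits was not tested. The gene start windows were not run.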
